A study of Rattus norvegicus with 24 samples.

Results

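The comparison described here is the difference between the early transcriptional effects of a pair of bromodomain inhibitors, JQ1 and the agent named iBD2, in rat striatal neurons. For each gene it is the JQ1 effect (JQ1 minus DMSO in experiment 1) minus the iBD2 effect (iBD2 minus DMSO in experiment 2), both after 60 min. It rests on 8 libraries, 2 in each of the 4 groups, of 23 analysed here and 24 in the labels. JQ1 and iBD2 make 1 pair of compounds, matched in time, and p-values were adjusted over the 13999 genes tested. The labels give no dose for either compound, so the doses cannot be said to match.

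All libraries came from primary striatal neurons of neonatal rats on day 7 in culture, depleted of ribosomal RNA. Strain and sex are not given in the sources used here. The 4 groups were JQ1 with DMSO and DMSO alone in experiment 1 (replicates N5 and N6), and iBD2 with DMSO and DMSO alone in experiment 2 (replicates N1 and N2). A further 7 libraries repeated the comparison in neurons that also received SKF, an agonist of the D1 dopamine receptor, with 1 library for SKF plus iBD2. Nothing in the labels says that replicates came from separate animals or cultures. The p-values therefore measure how libraries scatter within groups, and that scatter may be technical. It was estimated over the 12 groups of all 23 libraries analysed, including groups outside this comparison.

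BET proteins carry a pair of bromodomains, BD1 and BD2, which hold acetylated lysines on histones, and they help paused RNA polymerase II into elongation through the kinase complex P-TEFb. JQ1 occupies both bromodomains of every BET protein. The name iBD2 points to the second bromodomain, and the labels say nothing more of it. In many cell types pan-BET inhibition raises Hexim1, Txnip and replication-dependent histone genes and lowers Myc within hours, which is background and not a result of these data.

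Of the 13999 genes, the difference passed an adjusted p of 0.05 (limma, Benjamini-Hochberg) for 133, or 0.95%. It was higher for 74 genes (0.529%), meaning a more positive effect of JQ1 than of iBD2, and lower for 59 (0.421%). Genes were counted by gene identifier, and some of the 74 share a symbol with others of the 74. The rises were larger than the falls. On the log2 scale 11 of the 74 higher genes reached 1 and 57 reached 0.5, while none of the 59 lower genes reached -1 and 38 reached -0.5. JQ1 moved 617 genes against its own DMSO libraries (4.41%), 252 up (1.8%) and 365 down (2.61%). iBD2 moved 24 genes (0.171%), all up. At an unadjusted p under 0.05, iBD2 had 481 genes up and 438 down, and limma voom, the other tool run, called 1 gene down. The median standard error was 0.08 (log2) for each of the effects.

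These counts divide the genes into classes. A gene was taken as shared when both inhibitors moved it in the same direction, and as moved by JQ1 only when JQ1 moved it, iBD2 did not, and the difference itself passed in the direction of JQ1. There were 20 shared genes (0.143%), 120 moved by JQ1 only (0.857%, 62 up and 58 down) and 1 moved by iBD2 only (0.00714%). Moved means called here, so genes moved by JQ1 only are not shown to lack an iBD2 effect. Their iBD2 effect was above 0 for 47 of the 62 and below 0 for 34 of the 58. A further 477 genes were called with JQ1 and not with iBD2, yet their difference did not pass, so they are not shown to separate the compounds. The size of the shared class depends on single iBD2 and DMSO libraries: without 1 library at a time it held between 3 and 23 genes.

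**Figure D1:**
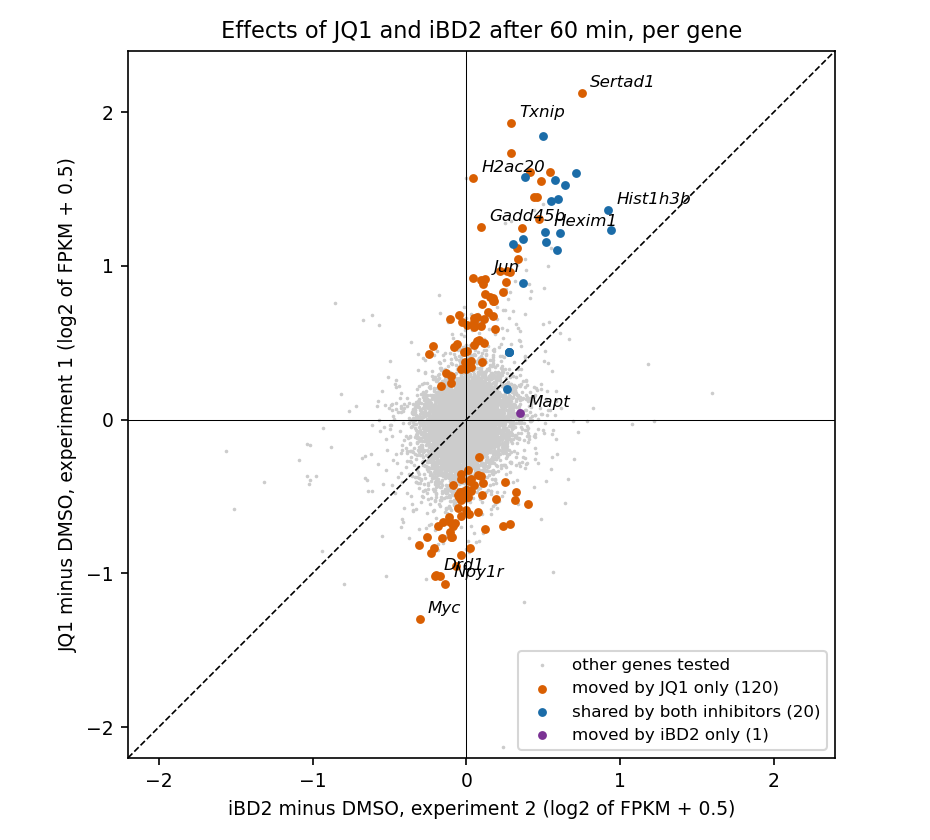
Effect of JQ1 (vertical) against effect of iBD2 (horizontal) after 60 min, as log2 differences from the DMSO libraries of the same experiment, with 1 point per gene of 13999 tested (7 lie outside the axes). Genes on the dashed line would have equal effects; the 120 orange genes spread along the vertical axis, with iBD2 effects from -0.31 to 0.75, and 19 of the 20 blue shared genes lie above the line.

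All 20 shared genes rose with both compounds, and 19 of them had the larger value with JQ1. Over the 20, the effect of JQ1 ranged from 0.20 to 1.85 with a median of 1.22, and that of iBD2 from 0.27 to 0.94 with a median of 0.52 (log2). These values chose the genes and are given as a description. The difference passed for 12 of the 20 and did not pass for 8. The 20 were 83.3% of the genes called with iBD2 and 3.24% of those called with JQ1. The 24 iBD2 calls fell to between 5 and 10 without 1 iBD2 or DMSO library of experiment 2 at a time. The share of 83.3% therefore rests on an unstable count. Of the 20, 10 were on the list of histone genes.

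Hexim1, whose protein holds P-TEFb in its inactive complex, was shared. It lies on the plus strand at chr10:91200874-91202984 in the build of the files, Rnor_6.0, which also gives the other positions below. It had 15.4 and 14.7 FPKM (fragments per kilobase of transcript, scaled to library size) in JQ1 libraries, against 7.22 and 5.42 in the DMSO libraries of experiment 1. It had 6.26 and 6.69 FPKM in iBD2 libraries, against 4.59 and 4.44 in the DMSO libraries of experiment 2. Neither inhibitor's libraries overlapped its DMSO libraries, and the gap was wider for JQ1. With 2 libraries per group, such a lack of overlap, here and below, is a description and not a test. The effects were 1.22 with JQ1 and 0.51 with iBD2, a difference of 0.71 ± 0.13 on the log2 scale (SE, adjusted p = 0.00791). This call ended when 1 JQ1 library (N5) was left out (difference 0.68, adjusted p = 0.052). DMSO libraries of experiment 1 were 0.52 higher for Hexim1 than those of experiment 2 (log2).

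Hist1h2bq (chr17:43679925-43689311, minus strand), a core histone H2B gene, was the most precisely measured of the shared genes. Its levels were 49.6 and 49.5 FPKM with JQ1, against 22.6 and 21.4 with DMSO in experiment 1. They were 32.7 and 32.8 FPKM with iBD2, against 26.3 and 25.7 with DMSO in experiment 2. Both inhibitors' libraries lay above their DMSO libraries, by a larger step with JQ1. The difference was 0.81 ± 0.06 (log2, adjusted p = 6.30e-06) and passed in every omission of 1 library. H2bc9, another H2B gene, had a difference of 0.98 ± 0.14 and Hist1h4m, an H4 gene, 0.64 ± 0.10.

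Other shared genes had no difference that passed. Hist1h3b, an H3 gene, had 21.5 and 23.2 FPKM with JQ1 against 9.09 and 7.98 with DMSO, and 14.2 and 13.5 FPKM with iBD2 against 6.39 and 8.21 with DMSO. Its difference was 0.44 with a 95% interval of 0.05 to 0.83 (adjusted p = 0.487). Ptma, which encodes the nuclear protein prothymosin alpha, was the 1 shared gene with the larger value for iBD2, a difference of -0.07 with an interval of -0.22 to 0.09. Hist2h4, Hist1h4b and Hist1h2ao had values within 0.018 FPKM of each other in each library and are 1 measurement. The difference was 0.16 ± 0.07 and did not pass. They still make up 3 of the 20 shared genes and 3 of the 43 histone genes tested, so those counts hold copies.

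Hexim1 and Hist1h2bq are among the shared genes, H2bc12 and Sertad1 among those raised by JQ1 only, and Gpr52 among those lowered by JQ1 only. The promoters of these 5 genes are shown as examples and do not stand for their classes. Each runs from 250 bases before to 50 bases after the annotated start, 5′ to 3′ on the strand of the gene (plus for Hexim1 and Sertad1, minus for the others), from RefSeq on build GRCr8. Capitals mark matches, on either strand, to 4 motifs, none of which overlap here: CCAAT of the CCAAT box, then GGGCGG of the GC box, then TATAAA of the TATA box, and finally ATTTGCAT, the octamer known from histone H2B promoters.
Hexim1: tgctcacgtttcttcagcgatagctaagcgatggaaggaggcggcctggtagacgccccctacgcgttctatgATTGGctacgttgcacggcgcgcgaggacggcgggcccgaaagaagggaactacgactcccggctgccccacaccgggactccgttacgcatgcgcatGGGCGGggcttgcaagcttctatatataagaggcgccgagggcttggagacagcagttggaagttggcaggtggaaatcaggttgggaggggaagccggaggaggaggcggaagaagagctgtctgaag
Hist1h2bq: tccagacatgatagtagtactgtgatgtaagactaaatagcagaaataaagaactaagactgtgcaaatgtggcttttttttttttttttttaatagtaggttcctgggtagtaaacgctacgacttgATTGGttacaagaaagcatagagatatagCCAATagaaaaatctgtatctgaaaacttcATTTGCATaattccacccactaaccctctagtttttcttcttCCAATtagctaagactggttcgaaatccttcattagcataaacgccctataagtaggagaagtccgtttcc
H2bc12: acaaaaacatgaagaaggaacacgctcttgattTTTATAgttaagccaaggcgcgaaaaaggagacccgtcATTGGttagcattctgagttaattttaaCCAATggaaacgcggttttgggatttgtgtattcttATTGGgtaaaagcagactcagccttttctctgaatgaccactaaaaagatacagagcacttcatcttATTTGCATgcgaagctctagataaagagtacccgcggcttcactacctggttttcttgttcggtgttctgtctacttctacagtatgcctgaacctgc
Sertad1: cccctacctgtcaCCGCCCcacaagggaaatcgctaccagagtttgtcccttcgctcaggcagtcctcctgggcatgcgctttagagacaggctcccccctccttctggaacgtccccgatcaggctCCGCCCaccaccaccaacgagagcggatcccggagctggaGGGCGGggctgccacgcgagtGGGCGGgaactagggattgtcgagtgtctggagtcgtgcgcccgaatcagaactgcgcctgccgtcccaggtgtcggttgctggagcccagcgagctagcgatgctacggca
Gpr52: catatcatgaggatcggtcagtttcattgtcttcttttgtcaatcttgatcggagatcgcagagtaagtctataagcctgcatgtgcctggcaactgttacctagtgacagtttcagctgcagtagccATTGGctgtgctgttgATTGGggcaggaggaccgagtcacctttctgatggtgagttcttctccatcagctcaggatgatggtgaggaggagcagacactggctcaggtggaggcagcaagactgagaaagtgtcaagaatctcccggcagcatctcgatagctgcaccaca

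Hexim1 held 1 CCAAT and 1 GC box, and Sertad1 held 4 GC boxes. Both H2B genes shown held 3 CCAAT and 1 octamer. The octamer lay 63 bases before the start in the shared gene Hist1h2bq and 48 bases before it in H2bc12. H2bc12 also held 1 TATAAA at 217 bases before the start. Gpr52 held 2 CCAAT. Of promoters not shown, those of Drd1 and Npy1r, also lowered by JQ1 only, and of the shared gene Hist1h4m held none of these motifs. The promoter of H2bc9, a shared H2B gene, held no octamer. Among all 33469 promoters of the table CCAAT was present in 37.5%, GGGCGG in 33.1%, TATAAA in 14.2% and ATTTGCAT in 1.78%. Among the 10139 genes tested that had a promoter in the table, these shares were 37.5%, 63.2%, 6.51% and 1.26%, in the same order. A comparison of such shares between the gene sets is void, since a promoter was matched for 50 of the 74 higher genes, 43 of the 59 lower genes and 13 of the 20 shared genes.

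Among the genes raised by JQ1 only, Txnip had the largest difference. Txnip encodes thioredoxin-interacting protein, which restrains glucose uptake and binds thioredoxin, and lies at chr2:198683159-198686974 on the plus strand. It had 73.5 and 71.1 FPKM with JQ1, against 20.4 and 17.6 with DMSO in experiment 1. It had 5.73 and 6.91 FPKM with iBD2, against 4.78 and 5.67 with DMSO in experiment 2. JQ1 and DMSO libraries were far apart, and the iBD2 libraries lay just above their DMSO libraries without overlap. The effects were 1.93 with JQ1 and 0.29 with iBD2 (adjusted p = 0.755), a difference of 1.64 ± 0.19 (adjusted p = 0.000275). Its level with DMSO was itself 1.86 higher in experiment 1 than in experiment 2 (log2), and whether that bears on the difference was not tested.

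Sertad1 (chr1:84293102-84296367, plus strand), a small transcriptional co-regulator that binds cyclin D-dependent kinase, had the largest JQ1 effect of the class. Its levels were 8.34 and 7.93 FPKM with JQ1 against 1.31 and 1.73 with DMSO. With iBD2 they were 3.67 and 3.19 FPKM, against 1.91 and 1.85 with DMSO. Both inhibitors' libraries stood above their DMSO libraries. The iBD2 effect of 0.75 just missed the threshold (adjusted p = 0.0587), so Sertad1 lies at the edge of the shared class, with a difference of 1.38 ± 0.21 (adjusted p = 0.00244). The calls for Txnip and Sertad1 held in all 8 omissions of 1 library.

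**Figure D2:**
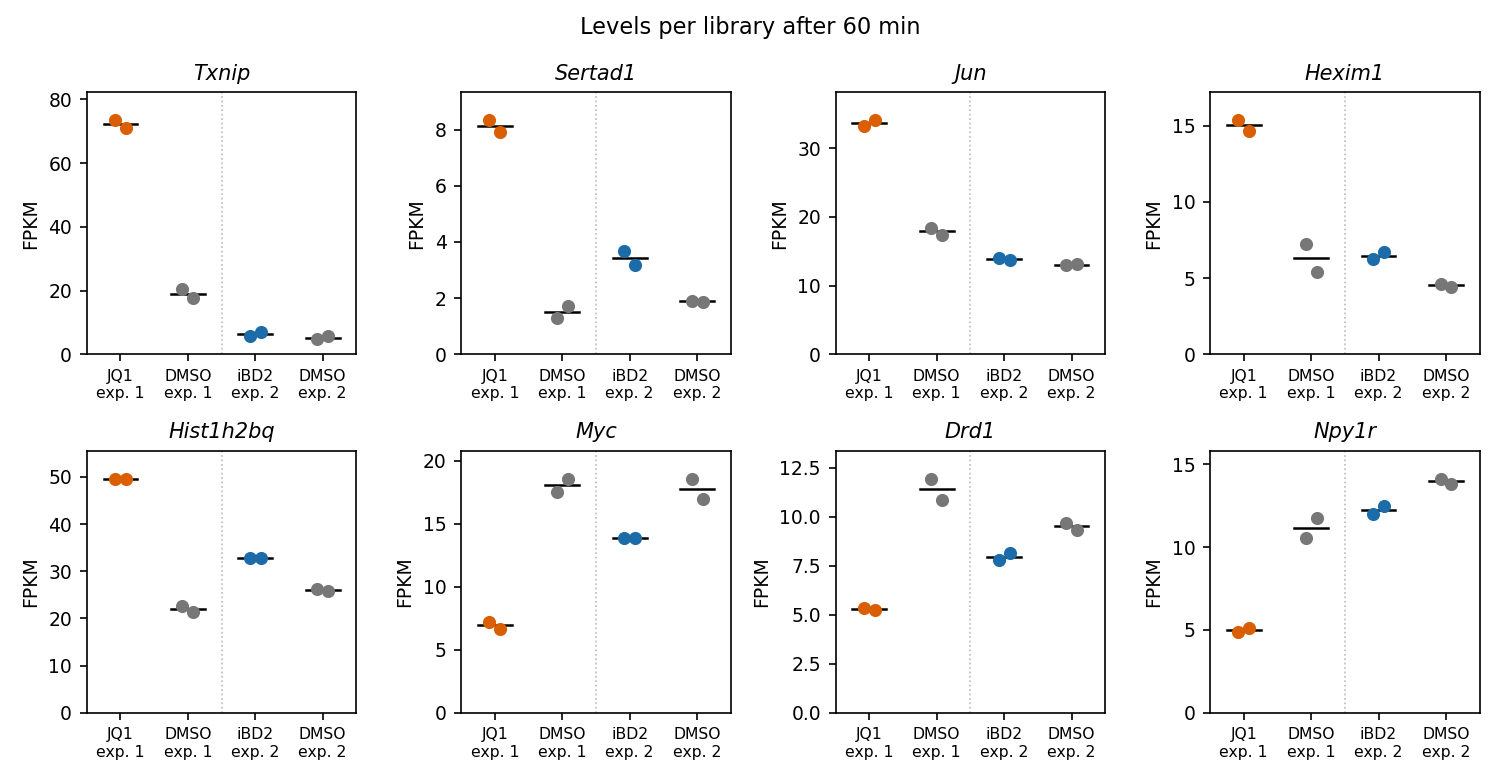
FPKM in each of the 8 libraries for 8 genes after 60 min, JQ1 and its DMSO libraries left of the dotted line and iBD2 and its DMSO libraries right of it; bars are group means (n = 2). Txnip, Sertad1, Jun, Hexim1 and Hist1h2bq are highest with JQ1, and Myc, Drd1 and Npy1r are lowest with JQ1, with the iBD2 libraries closer to their DMSO libraries.

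The gene lists were chosen with earlier results of these data known, so their counts are a description and not a test. Of the lists, histone genes held the most rises. Of the 43 tested, the difference passed for 17, all higher, and for none lower, against 0.529% higher over all genes. The median difference over the 43 was 0.59 (log2), where that over all genes was 0.00. JQ1 raised 31 of the 43 and iBD2 raised 10, all of them also raised by JQ1. The median effects were 0.82 with JQ1 and 0.28 with iBD2, and 39 of the 43 had an iBD2 effect above 0. Single-exon genes made up 37 of the 43. Many are near-identical copies, among which the authors' read assignment could be uncertain.

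The histone genes moved by JQ1 only differed in their iBD2 values. H2ac20, an H2A gene, had 9.36 and 9.90 FPKM with JQ1, against 3.55 and 2.46 with DMSO. With iBD2 it had 5.69 and 5.24 FPKM, against 5.22 and 5.64 with DMSO, which overlapped. Its difference was 1.52 ± 0.18 (adjusted p = 0.000267). H4f3, an H4 gene, differed by 1.45 ± 0.16 (adjusted p = 9.47e-05), with no overlap between its JQ1 and DMSO libraries and an iBD2 effect of 0.29 that did not pass (adjusted p = 0.66).

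The H2B gene H2bc12 had 16.1 and 18.6 FPKM with JQ1, against 4.83 and 6.09 with DMSO, and 6.23 and 4.53 FPKM with iBD2, against 3.97 and 3.97 with DMSO. Its difference of 1.19 ± 0.22 (adjusted p = 0.0119) did not pass in 4 of the 8 omissions. H2ax, the variant H2A that is phosphorylated at DNA breaks, had 33.5 and 32.8 FPKM with JQ1 against 19.5 and 18.3 with DMSO. With iBD2 H2ax had 22.5 and 21.7 FPKM, against 21.2 and 20.6 with DMSO, and its difference was 0.70 ± 0.08 (adjusted p = 9.47e-05). H1f2, a linker histone, and H3f3a, a replication-independent H3 variant, also passed at 0.61 and 0.54. Of others on the list, H3f3b, H3f3c, H2az1, H2az2 and H1f10 did not pass. A rise outside the core replication-dependent genes therefore rests on few genes.

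**Figure D3:**
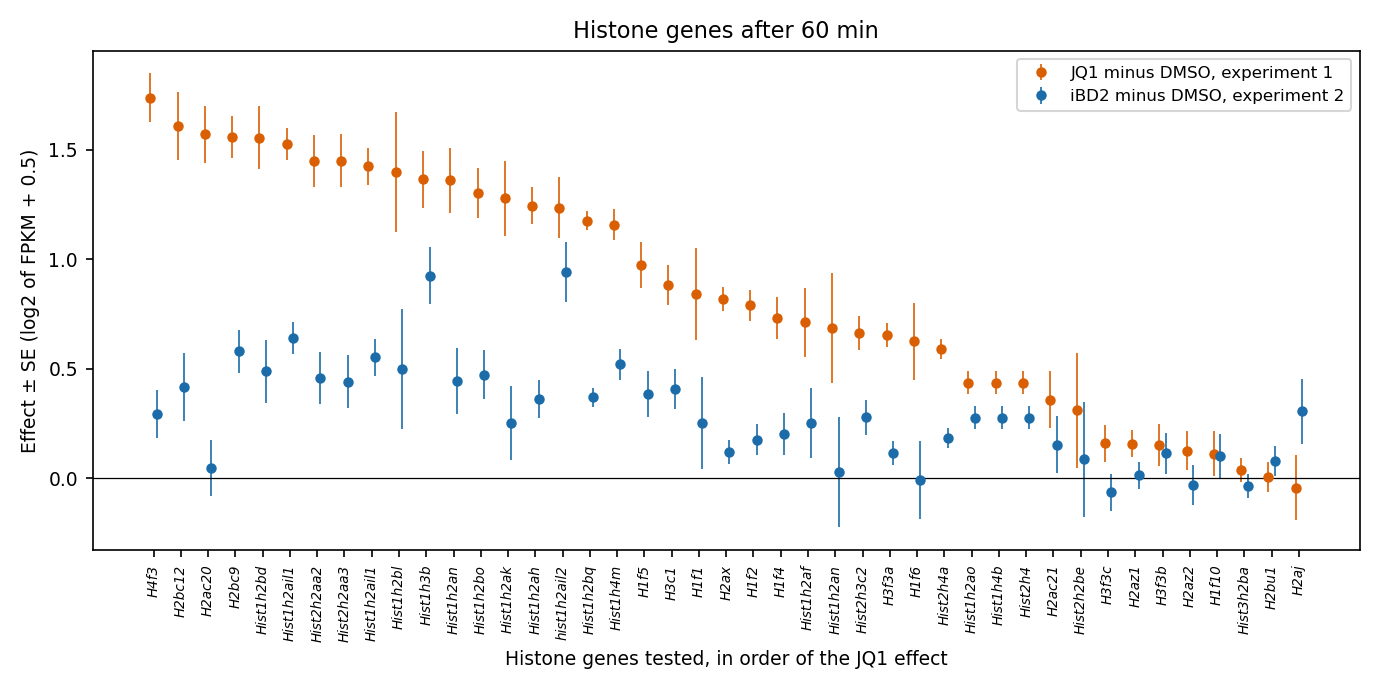
Effects of JQ1 (orange) and iBD2 (blue) on the 43 histone genes tested, as log2 differences from DMSO with standard errors from the limma model, in order of the JQ1 effect. JQ1 values lie above iBD2 values for 41 of the 43 genes, and 39 iBD2 values are above 0.

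Immediate early genes, the first to respond to neuronal activity, did not move as a block. Of 42 tested, the difference passed for 4 higher and 1 lower, against 0.529% and 0.421% over all genes, with a median of 0.10. The list's median difference with SKF was 0.33, and its SKF effect differed between the experiments by a median of -0.23. Jun, an AP-1 subunit, had 33.2 and 34.1 FPKM with JQ1, against 18.3 and 17.4 with DMSO, and 14.0 and 13.7 FPKM with iBD2, against 13.0 and 13.1 with DMSO. Its difference was 0.79 ± 0.07 (adjusted p = 1.75e-05), while Jund, another AP-1 subunit, differed by 0.38 ± 0.07 and passed in 5 of the 8 omissions.

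Gadd45b, which encodes a stress sensor linked to DNA demethylation, had 4.23 and 4.54 FPKM with JQ1, against 1.63 and 1.54 with DMSO. With iBD2 Gadd45b had 2.87 and 1.94 FPKM, against 1.98 and 2.55 with DMSO, which overlapped. The difference was 1.16 ± 0.20 (adjusted p = 0.00668). Ier2, a nuclear immediate early protein, differed by 0.79 ± 0.17 and passed in 1 of the 8 omissions. Errfi1, a feedback inhibitor of the EGF receptor on the list of later activity genes, differed by 0.77 ± 0.08 and passed in all 8.

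The difference did not pass for the activity genes most used as markers, and their intervals were wide. Fos, an AP-1 subunit, had 61.0 and 64.3 FPKM with JQ1, against 39.8 and 45.6 with DMSO. With iBD2 Fos had 80.6 and 64.1 FPKM, against 62.4 and 54.1 with DMSO. Both inhibitors' libraries lay above their DMSO libraries, and the difference was 0.23 with an interval of -0.30 to 0.76. For Egr1, a zinc finger transcription factor, the difference was 0.66 (-0.07 to 1.40). For Npas4, an activity-dependent transcription factor, it was 0.10 (-0.53 to 0.72). Arc, a synaptic capsid-like protein, gave -0.09 (-0.79 to 0.60), Nr4a1, an orphan nuclear receptor, -0.24 (-1.01 to 0.52), and Bdnf, a neurotrophin, -0.39 (-0.91 to 0.13). These intervals do not show equal effects of the compounds.

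Nr4a3, a nuclear receptor of the same family as Nr4a1, was the immediate early gene with a lower difference. It had 20.7 and 21.1 FPKM with JQ1, against 28.1 and 28.6 with DMSO. With iBD2 it had 51.7 and 41.8 FPKM, against 40.8 and 39.5 with DMSO. JQ1 libraries lay below DMSO and iBD2 libraries above DMSO. The difference of -0.66 ± 0.14 (adjusted p = 0.0387) passed in 1 of the 8 omissions.

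Stress response genes gave 4 higher and 0 lower differences among 20 tested, against 0.529% and 0.421% over all genes. The list's median was 0.09. Sesn2, a sestrin that restrains mTORC1, had 16.0 and 15.2 FPKM with JQ1, against 9.61 and 10.5 with DMSO. With iBD2 Sesn2 had 10.6 and 10.2 FPKM, against 10.4 and 10.3 with DMSO, which overlapped. Its difference was 0.58 ± 0.10 (adjusted p = 0.00569). The others were Hspa1b, an inducible HSP70 chaperone (0.66 ± 0.15), Hspa5, a chaperone of the endoplasmic reticulum (0.35 ± 0.07), and Ddit4, an mTORC1 inhibitor (0.31 ± 0.07). The calls for Hspa1b and Ddit4 did not pass in any of the 8 omissions, and that for Hspa5 passed in 2.

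Among the genes lowered by JQ1 only, Myc (chr7:102586313-102591240, plus strand), the growth-promoting transcription factor, had the largest difference. It had 7.19 and 6.68 FPKM with JQ1, against 17.5 and 18.6 with DMSO. It had 13.9 and 13.8 FPKM with iBD2, against 18.6 and 17.0 with DMSO. Both inhibitors' libraries lay below their DMSO libraries. The effects were -1.30 with JQ1 and -0.30 with iBD2 (adjusted p = 0.34), and the difference was -0.99 ± 0.12 (adjusted p = 0.000162). None of the other 11 members tested of the Myc and Max network passed.

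Receptors of striatal neurons were among the falls. Drd1 (chr17:11101306-11103541, plus strand), the D1 dopamine receptor of direct-pathway projection neurons, had 5.32 and 5.24 FPKM with JQ1, against 11.9 and 10.8 with DMSO. It had 7.78 and 8.13 FPKM with iBD2, against 9.69 and 9.31 with DMSO. Both pairs of groups stayed apart, and the gap was wider with JQ1, while the fall with iBD2 did not pass. The difference was -0.82 ± 0.13 (effects of -1.02 and -0.20, adjusted p = 0.00378). For Drd2, the D2 receptor of the indirect pathway, the difference was 0.06 with an interval of -0.17 to 0.28.

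Npy1r, a receptor for neuropeptide Y, had 4.86 and 5.09 FPKM with JQ1, against 10.6 and 11.7 with DMSO. With iBD2 Npy1r had 11.99 and 12.5 FPKM, against 14.1 and 13.8 with DMSO. Its difference was -0.93 ± 0.13 (adjusted p = 0.000867). Gpr52, an orphan receptor of D2-type striatal neurons, had 2.61 and 2.90 FPKM with JQ1, against 6.318 and 5.998 with DMSO. With iBD2 it had 8.32 and 9.12 FPKM, against 10.34 and 10.02 with DMSO, and its difference was -0.84 ± 0.13 (adjusted p = 0.00177). For both receptors all inhibitor libraries lay below their DMSO libraries, by a smaller step with iBD2. Neither fall with iBD2 passed, so these steps do not show an iBD2 effect.

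Of 40 G protein-coupled receptor genes tested, 3 passed, all lower (Npy1r, Gpr52 and Sstr4, a somatostatin receptor, at -0.62 ± 0.11), against 0.421% lower over all genes, and the list's median was -0.13. Sstr4 passed in 6 of the 8 omissions. Of 35 striatal projection neuron genes 2 passed, both lower (Drd1 and Gpr52), and the median was 0.03. Gpr6, an orphan receptor of indirect-pathway neurons, had 13.4 and 12.6 FPKM with JQ1, against 23.9 and 22.5 with DMSO, and 34.6 and 35.1 FPKM with iBD2, against 35.9 and 35.5 with DMSO. Its difference of -0.80 did not pass (adjusted p = 0.0662). Among 34 ion channel genes 2 passed, both lower: Kcna4, a voltage-gated potassium channel subunit, at -0.66 ± 0.11 (adjusted p = 0.00446), and Kcns2, a modulatory subunit of such channels, at -0.61 ± 0.13, which passed in 2 of the 8 omissions.

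The list of 34 later activity genes held 2 higher differences (Errfi1 and Fbxo33, an F-box protein) and 2 lower ones (Ptgs2 and Inhba). Over all genes 0.529% passed higher and 0.421% lower. Ptgs2, the inducible cyclooxygenase, was low throughout, with 0.192 and 0.173 FPKM with JQ1, against 0.789 and 0.969 with DMSO, and 0.781 and 0.739 FPKM with iBD2, against 0.957 and 0.992 with DMSO. Its difference was -0.81 ± 0.14 (adjusted p = 0.00784), on a scale that understates the change of low genes, and it did not pass without 1 DMSO library of experiment 1 (N6, adjusted p = 0.062). Inhba, the activin A subunit, differed by -0.89 ± 0.18 and Has2, a hyaluronan synthase, by -0.84 ± 0.15. Inhba passed in 3 and Has2 in 5 of the 8 omissions.

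Mapt, which encodes the microtubule protein tau, was the single gene of the class moved by iBD2 only. It had 243.5 and 235.9 FPKM with JQ1, against 245.8 and 228.1 with DMSO. It had 348.2 and 327.0 FPKM with iBD2, against 273.0 and 271.6 with DMSO. JQ1 and DMSO libraries overlapped, and both iBD2 libraries lay above their DMSO libraries. The difference was -0.31 ± 0.06 (adjusted p = 0.0159), passed in 3 of the 8 omissions, and was 0.01 by limma voom.

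Brd3, which encodes a BET protein, had a difference of -0.10 that did not pass (interval -0.23 to 0.03). Among the 20 BET and P-TEFb genes Hexim1 alone passed. Of 22 genes chosen as reported responders to BET inhibitors, 5 passed higher (Txnip, Sertad1, Hexim1 and the H2B genes H2bc12 and Hist1h2bd) and 1 lower (Myc). Over all genes 0.529% passed higher and 0.421% lower. Hist1h2bd passed in 3 of the 8 omissions of 1 library. No difference passed among 34 glutamate receptor and synapse genes, 24 cholesterol synthesis genes, 92 cytosolic ribosomal protein genes or 80 nuclear genes of the respiratory chain. The cholesterol list had a median of 0.16 with 20 of 24 genes above 0, against 7035 of 13999 over all genes, and its median with SKF was 0.03.

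**Figure D4:**
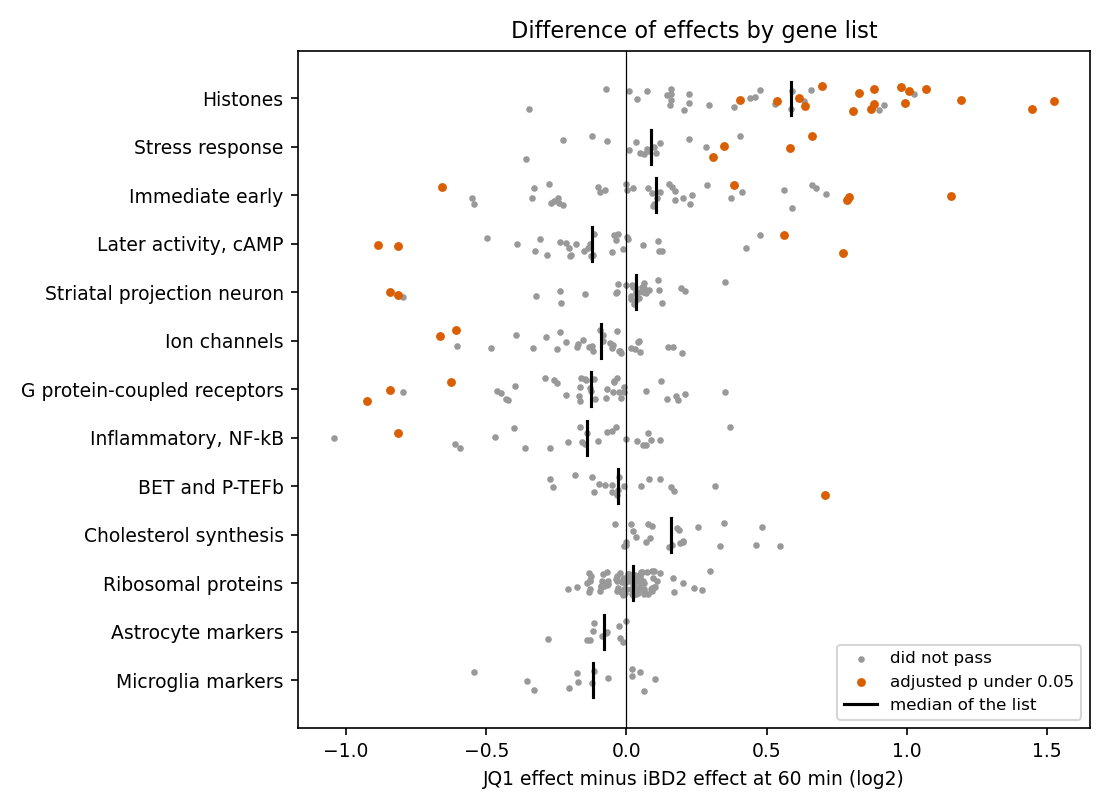
Difference of effects (JQ1 minus iBD2, log2) for each gene of 13 lists, with lists down the page; orange points passed an adjusted p of 0.05, grey points did not, and black bars are list medians. Histone genes have 17 orange points and a median of 0.59, and the other lists shown have medians between -0.14 and 0.16.

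Other families were picked out after their own values were seen and are given as counts only. The lists above were not blind either, since they were chosen with earlier results of these data known. Of 306 genes named Zfp, Zbtb, Zscan or Zkscan, mostly zinc finger transcription factors, 2 passed higher and 11 lower. Over all genes tested 0.529% passed higher and 0.421% lower, and the median of the 306 was -0.11. None of the 11 lower calls held in all 8 omissions, and each held in 1 to 4 of them. Of 17 Dlx and other striatal transcription factor genes 4 passed, all higher: Dlx5, Dlx6, Zfp503 and Zfp703. Zfp503 and Zfp703 are also the 2 higher genes of the zinc finger family, so the families overlap. Dlx5 and Zfp703 passed in all 8 omissions, and Dlx6 and Zfp503 in 1 of the 8. Dlx5, a homeobox gene of developing striatal neurons, had 53.3 and 50.8 FPKM with JQ1, against 31.7 and 34.5 with DMSO. With iBD2 Dlx5 had 30.9 and 33.1 FPKM, against 31.5 and 31.2 with DMSO, which overlapped, and its difference was 0.60 ± 0.08 (adjusted p = 0.000811). Mylip, a ubiquitin ligase for the LDL receptor, differed by 0.88 ± 0.10 and Med26, a Mediator subunit that recruits elongation factors, by 0.61 ± 0.10.

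Genes whose difference passed had few exons and short spans, a feature that the comparison did not use. Single-exon genes were 45.9% of the 74 higher and 20.3% of the 59 lower genes, against 8.32% of all genes tested. They were 85% of the 20 shared genes. With the histone list left out they were 35.1% of the 57 remaining higher genes. The list was matched by symbol, so genes with LOC symbols stayed among the 57. Whether any of those encode histones was not tested. The median span was 2.34 kb for the higher and 7.48 kb for the lower genes, against 19.6 kb for all genes, and the median number of exons was 2 and 3 against 8.

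The same difference was measured in other libraries of the same experiments, those of neurons that also received SKF. JQ1 was again used in experiment 1 alone and iBD2 in experiment 2 alone. The libraries with SKF therefore cannot separate compound from experiment, and are not an independent replication. There 112 genes passed (0.8%, 71 higher and 41 lower). Of these, 65 had also passed without SKF, all in the same direction (51 higher and 14 lower). The 65 were 48.9% of the genes found without SKF and 58% of those found with it. Of the 74 higher genes 73 were above 0 with SKF, and of the 59 lower genes 55 were below 0. Txnip differed by 1.56 with SKF, Hexim1 by 1.005, Jun by 0.78, Myc by -1.06 and Drd1 by -1.14, all called. Gadd45b at 0.71 and H2bc12 at 1.04 did not pass there (adjusted p = 0.227 and 0.0623). Histone genes had a median difference of 0.58 with SKF, with 15 of 43 higher. With SKF the iBD2 arm is 1 library, whose spread is taken from the other groups.

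**Figure D5:**
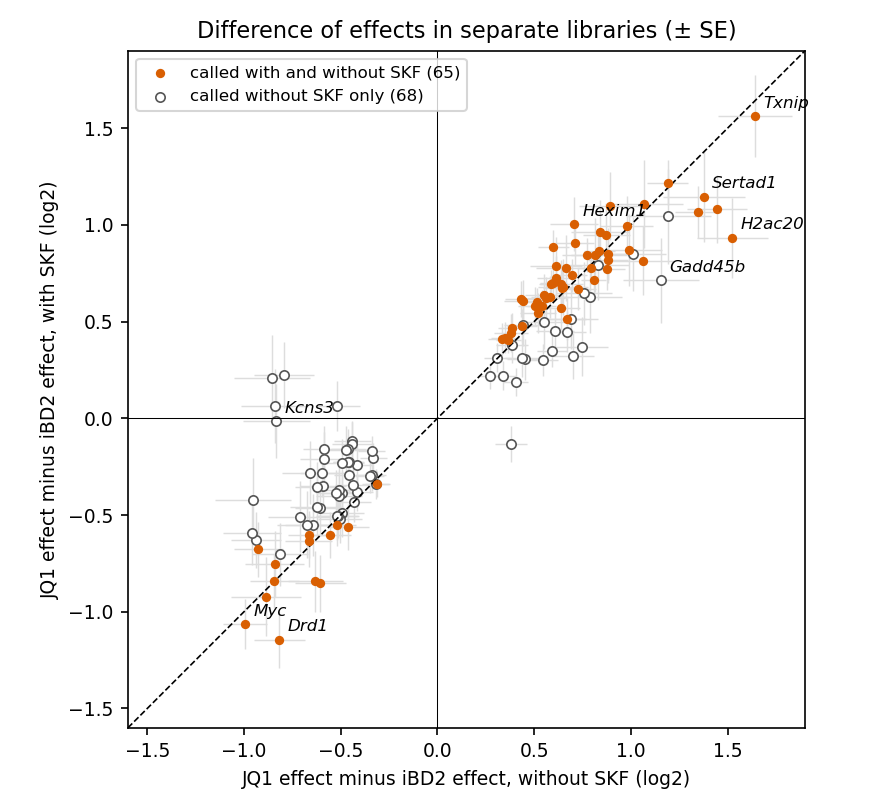
Difference of effects with SKF (vertical) against that without SKF (horizontal) for the 133 genes that passed without SKF, in log2 with standard errors; orange genes passed in both, open circles without SKF alone. Of the points right of 0, 73 of 74 lie above 0, and of those left of 0, 55 of 59 lie below 0.

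Genes were also chosen from other libraries, by their response to JQ1 in the presence of SKF, to read the sign of the iBD2 effect. With SKF present, adding JQ1 raised 379 genes (2.71%) and lowered 541 (3.86%). In the libraries without SKF, the 379 had a median JQ1 effect of 0.29 and a median iBD2 effect of 0.07, and 281 had an iBD2 effect above 0 against 7123 of 13999 over all genes. The 541 had medians of -0.27 with JQ1 and -0.06 with iBD2, and 433 had an iBD2 effect below 0 against 6868 of all genes. The iBD2 effects mostly had the sign of the JQ1 effects. Since JQ1 chose these genes, they do not show which compound has the larger effect.

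Inhibitor and experiment cannot be told apart, since each compound was used in 1 of them. The experiments also differed with DMSO alone, where 6145 genes passed (43.9%), among them 64 of the 133 genes with a called difference (48.1%). Aligned bases came to 8.18 and 9.95 gigabases in the JQ1 and 7.23 and 8.13 in their DMSO libraries, against 4.36 and 4.71 in the iBD2 and 4.56 and 4.88 in their DMSO libraries. Mitochondrially encoded genes took 9.91 to 12.2% of these bases in experiment 1, against 6.57 to 7.38% in experiment 2. Their part in the differences was not tested. The same agent, SKF, was used in both experiments, and its effect (SKF minus DMSO) differed between them for 0 genes by limma, for 490 at an unadjusted p under 0.05 and for 0 by limma voom. For the 133 genes the median absolute difference of the SKF effects was 0.11 (log2), where that of the inhibitor effects, which chose these genes, was 0.61. Over all 13999 genes, with no such choice, the medians were 0.07 for the SKF effects and 0.09 for the inhibitor effects. The 2 comparisons share their DMSO libraries.

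The cultures held neuronal markers at a like summed level, with summed FPKM of the 10 markers from 2670 to 2810 in all 8 libraries. Single markers shifted in both directions. Gad2 had 341 to 347 FPKM in experiment 1 and 405 to 433 in experiment 2. Map2 had 386 to 417 and 325 to 350, in the same order. The excitatory neuron and interneuron markers summed to 523 to 535 FPKM in experiment 1 and 429 to 465 in experiment 2. Slc17a7, on that list, ran the other way, with 6.38 to 9.01 and 11.8 to 12.2. Markers of non-neuronal cells were higher in experiment 1. The 12 astrocyte markers summed to 529 to 553 FPKM with JQ1 and 558 to 586 with its DMSO, against 229 to 233 with iBD2 and 220 to 232 with its DMSO. The 14 microglia markers summed to 122 to 126 with JQ1 and 117 to 136 with its DMSO, against 68.3 to 69.0 with iBD2 and 63.1 to 69.5 with its DMSO. None of these markers was listed at 0 in all 8 libraries, and no gene of the neuron, astrocyte, oligodendrocyte or microglia lists had a difference that passed. The glial lists lay below 0, with median differences of -0.08 for astrocyte markers (0 of 12 above 0), -0.09 for oligodendrocyte markers (3 of 11) and -0.12 for microglia markers (5 of 14), and with SKF the medians were 0.12, 0.03 and -0.02. The part of the non-neuronal cells and of the neuron types in the differences was not tested. In bulk samples fewer cells of a type and less RNA per cell cannot be told apart.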

How the data were processed

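Stranded libraries depleted of ribosomal RNA were sequenced, per the labels' protocols, and 23 of 24 samples were analysed here. The submitters' processing notes name STAR, StringTie, DESeq2, FastQC and Trim Galore, without versions, and the genome build Rnor_6.0. The deposited tables give FPKM per transcript, scaled by the authors to library size, and coverage (mean reads per base). Neither labels nor headers say whether counting used the strand. Overlapping or antisense genes are therefore uncertain.

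FPKM were summed by gene, divided by a median-ratio size factor and taken as log2(FPKM + 0.5). Genes needed 0.5 FPKM in at least 2 libraries and a transcript of at least 200 nucleotides, which left 13999. limma 3.58.1 under R 4.3.3, with its trend and robust options, fitted 12 group means to the 23 libraries with 11 residual degrees of freedom. All effects and differences were its contrasts, with two-sided tests and Benjamini-Hochberg adjustment over all genes, and intervals are 95%. The model was tested on simulated data. FPKM are not counts, so limma voom on reads estimated from coverage served only as an alternative, beside other scaling, pseudocounts, filters, library sets, a replicate block and omissions of 1 library. Aligned bases were computed from coverage, length and FPKM.

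Named genes were the 12 largest called rises and 12 largest falls that had a symbol, at least 1 FPKM in a group and no overlap of library differences, 8 shared genes, up to 4 genes of each list by p, and a short fixed set. Hist1h4m, Ptma, Hist2h4, Hist1h4b, Hist1h2ao, H1f2, H3f3a, Nr4a3, Ptgs2, Dlx5, Dlx6, Zfp503, Zfp703, Mylip, Med26 and Vps25 were named after their values were seen. Some genes this rule takes are left out. The JQ1 and iBD2 library differences did not overlap for 2849 of all 13999 genes (20.4%). Members, lists and rules were chosen with earlier results of these data known. Promoters came from RefSeq (GRCr8) and carry no coordinates, since the files use another build.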

Additional observations from a re-analysis of the deposited data

Results flagged for a closer look

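For Vps25, which encodes a subunit of the ESCRT-II complex that sorts membrane proteins, the difference of the inhibitor effects with SKF minus that without SKF was 3.31 on the log2 scale, the 1 gene of 13999 called in that contrast. Without SKF its difference was 0.02. The value rests on the lone library of SKF plus iBD2, where Vps25 had 2.14 FPKM, against 26.2 and 26.5 in the SKF libraries of experiment 2. In the other 12 libraries of the 60 min experiments it lay between 25.3 and 32.0 FPKM. With 1 library in that group, its own spread is unknown and the call compares that library, not the condition.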

How the results depend on the processing

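The 133 calls of the difference became 67 when the 8 libraries were fitted alone and ranged from 65 to 127 without 1 library at a time. The low counts came without JQ1 N5 (65), JQ1 N6 (65), DMSO N6 of experiment 1 (76), DMSO N1 of experiment 2 (79) and iBD2 N1 (87). Of the 133 genes 50 passed in every omission (41 of the 74 higher and 9 of the 59 lower) and 44 under all 16 alternatives (37 higher and 7 lower). With FPKM as deposited 72 were higher and 36 lower. Without 1 library the other counts ranged from 47 to 92 for the difference with SKF, 1 to 2 for the difference by SKF, 322 to 610 for JQ1, 5 to 10 for iBD2, 0 to 3 for the SKF effect between experiments, 4080 to 5794 for DMSO between experiments, 3 to 23 for shared genes, 56 to 106 for JQ1 only and 0 to 3 for iBD2 only. With no filter on low values the counts were 271 for the difference with SKF, 105 for the difference by SKF, 6 for the SKF effect between experiments, 8 shared and 9 iBD2 only. By limma voom they were 2 for the difference by SKF, 4 for iBD2 and 3 shared. With the 15 libraries of 60 min they were 13 for iBD2 and 10 shared, with the 8 libraries 6 for iBD2, 5 shared, 63 JQ1 only and 0 iBD2 only, and with FPKM as deposited 9 for iBD2 and 7 shared. The causes were not tested, beyond the fewer libraries of some fits.

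The labels do not say that replicate numbers pair libraries, and deviations of same-numbered libraries correlated between -0.27 and 0.34. With the number as a replicate block the difference had 121 calls (72 higher, 49 lower), JQ1 643, iBD2 25 and iBD2 only 3.

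Of the named genes' 704 values for called genes, 559 kept their call, 144 lost it and 1 turned sign (Mapt by limma voom, 0.009). Of 1296 values for genes not called, 7 gained a call and 16 turned sign. One was Nr4a1 by limma voom (0.002). The others came with 1 library left out, where the differences ran from -0.248 to 0.06 for Arc, -0.194 to 0.012 for Cdca4, -0.244 to 0.103 for Mt-co3, -0.268 to 0.128 for Mt-cyb, -0.289 to 0.154 for Mt-nd1, -0.312 to 0.168 for Mt-nd5, -0.098 to 0.296 for Npas4, -0.528 to 0.042 for Nr4a1, -0.013 to 0.23 for Olig2 and -0.025 to 0.211 for Sertad2. With 2 libraries per group, the median standard error of a difference was 0.12 (log2), which limits what could be called.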
